A study of Mus musculus with 12 samples.

Results

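*Carm1* and 7 other genes for protein arginine methyltransferases (*Prmt1*, *Prmt2*, *Prmt3*, *Prmt5*, *Prmt6*, *Prmt7* and *Prmt8*) were examined in whole mouse embryos that lacked *Carm1* or *Pax3*. These 8 genes are listed by name and do not cover the whole family. All 8 were found among the 23420 genes of the tables of counts. A further member, *Prmt9*, is there under the symbol *Prmt10*, and was read with a list of related genes further below. RNA with a poly(A) tail was sequenced from embryos at E12.5, 1 library per embryo and 3 embryos per group. In the *Carm1* line, on C57BL/6, embryos homozygous for the targeted allele *Carm1* tm1Mtb, called *Carm1 KO/KO* here, were set against wild-type embryos. In the *Pax3* line, kept in another laboratory as a closed colony of mixed strain (CBA/Ca, C3H/He and 101 ancestry), embryos homozygous for the *Pax3* Sp2H mutation of Splotch mice, called *Pax3 Sp2H/Sp2H* here, were set against wild-type embryos. Both alleles are constitutive and carried in every tissue, and both lines came from intercrosses of heterozygotes. The comparisons ask what the loss of *Carm1* did to its own mRNA and to those of its relatives, and whether the loss of *Pax3*, whose protein has been proposed as a target of CARM1, moved the same genes.

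Protein arginine methyltransferases transfer methyl groups from S-adenosylmethionine to the nitrogen atoms of arginine side chains in histones, splicing factors, ribosomal proteins and other substrates. Type I enzymes (PRMT1, CARM1, which is also known as PRMT4, PRMT2, PRMT3, PRMT6 and PRMT8) leave asymmetric dimethylarginine, the type II enzyme PRMT5 leaves symmetric dimethylarginine, and the type III enzyme PRMT7 stops at monomethylarginine. CARM1 is a coactivator recruited to promoters and enhancers by transcription factors, and its loss in mice is lethal around birth.

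The *Carm1* KO allele lacks exons 2 and 3. In the reference transcript of 16 exons and 3220 nt, these exons hold 233 nt, or 7.24% of its length, and encode residues 75 to 152 of a protein of 608 residues. The length of both exons together leaves a remainder of 2 when divided by 3, so that in the reference sequence the joint of exons 1 and 4 shifts the reading frame. The first stop in the shifted frame came after 151 codons, in exon 6 and 998 nt before the last joint between exons. Both sequences are shown because they define what the allele removes and what the counts of *Carm1* can still contain. They are spliced from GENCODE transcripts of GRCm38 on the plus strand between chr9:21547216-21575428 for the first and chr9:21547216-21580325 for the second. In the first, capitals mark exons 2 and 3, with 15 nt of exon 1 before them and 15 nt of exon 4 after them, and in the second capitals mark the stop.
Carm1 exons 2 and 3 between exons 1 and 4: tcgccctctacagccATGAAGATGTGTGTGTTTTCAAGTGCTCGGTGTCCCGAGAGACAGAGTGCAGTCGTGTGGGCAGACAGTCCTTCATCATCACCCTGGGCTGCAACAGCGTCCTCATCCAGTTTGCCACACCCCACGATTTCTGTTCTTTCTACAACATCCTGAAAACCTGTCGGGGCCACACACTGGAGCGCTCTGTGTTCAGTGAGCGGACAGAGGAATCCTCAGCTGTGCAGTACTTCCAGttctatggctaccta
Carm1 exon 1 joined to exon 4 up to the first stop: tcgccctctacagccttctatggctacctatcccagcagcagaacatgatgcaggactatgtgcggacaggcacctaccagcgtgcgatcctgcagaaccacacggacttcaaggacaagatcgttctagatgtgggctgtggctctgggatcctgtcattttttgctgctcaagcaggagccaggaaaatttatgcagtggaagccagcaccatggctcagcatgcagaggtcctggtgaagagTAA
The deposited counts are per gene, so reads on single exons were not analysed here. The remaining exons are in both alleles, and a count of *Carm1* in *Carm1 KO/KO* embryos is therefore not a count of functional mRNA.

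Libraries held between 17183344 and 23518692 counts. Levels are given as CPM, which are counts scaled to the size of the library, here over all 12 libraries with edgeR's TMM factors, and as mean ± SD of 3 libraries. Mutants were compared with wild-type embryos within each line by edgeR's quasi-likelihood test, with *P* values adjusted over all genes tested and a threshold of 0.05. An exact permutation test of 3 libraries against 3 cannot go below *P* = 0.1, so single genes rest on this model. The members held between 299 counts, for *Prmt8* in 1 library, and 7679 counts, for *Prmt1* in another. Counting error alone is then 5.78% for the first, and at the smallest count of *Prmt1*, 4358, it is 1.51%. The *Pax3* gene itself had a log2 fold change of -0.43 in *Pax3 Sp2H/Sp2H* embryos and of 0.37 in *Carm1 KO/KO* embryos (adjusted *P* = 0.0014 and 0.0010). Reads on 4 Y-linked genes separated wild-type replicate 3 of the *Carm1* line (4804 counts, against at most 5 in the other libraries of that line) and, in the *Pax3* line, wild-type replicates 2 and 3 and mutant replicate 3 (at least 4447 counts, against at most 23), which are sets of male and female embryos. In these bulk samples, fewer cells of a type and less RNA per cell cannot be told apart.

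In *Carm1 KO/KO* embryos *Carm1* mRNA fell by 49.9%, *Prmt2* fell by 14.4% and *Prmt5* rose by 11.1%. These were 3 of the 8 members with a significant change, where 13.3% of all 15811 genes tested had one. With *Carm1*, which the allele itself disrupts, set aside, 2 of 7 members had one. The other 5 members, *Prmt1*, *Prmt3*, *Prmt6*, *Prmt7* and *Prmt8*, did not pass the threshold. In 5 of the 8 members, and in 4 of the 7 without *Carm1*, the libraries of the groups did not overlap, compared with 30.0% of all genes tested. Since the 8 genes were listed with earlier results of these data known, these shares are descriptive.

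*Carm1*, which deposits asymmetric dimethylarginine on histone H3, stood at 72.3, 70.3 and 77.2 CPM in the *Carm1 KO/KO* libraries. It stood at 152.8, 147.6 and 138.6 CPM in the wild-type libraries of the line. Every mutant library was far below every wild-type library. The mean was 73.3 ± 3.57 CPM against 146.4 ± 7.16 CPM, and the log2 fold change was -0.998 (SE 0.05, 95% interval -1.10 to -0.90, adjusted *P* = 1.2e-15). *Carm1* had the smallest *P* value of all genes tested in this line, although 145 of the 1238 genes that were significantly lower fell further. The allele deletes 7.24% of the reference transcript, or 4.80% of all annotated exons of the gene. The paper examined its reads for the joint of exons 1 and 4, and presumes that nonsense-mediated decay lowers this mRNA. The cause of the fall was not tested here. The log2 fold change stayed between -1.04 and -0.97 in 15 alternative ways of processing, and was significant in each.

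*Prmt2*, a type I enzyme of weak activity that binds nuclear receptors, stood at 54.1, 50.1 and 49.6 CPM in *Carm1 KO/KO* embryos. In wild-type embryos it stood at 61.1, 61.4 and 57.0 CPM. The groups did not overlap, and the closest libraries of the 2 groups were 54.1 and 57.0 CPM. The log2 fold change was -0.22 (SE 0.06, 95% interval -0.34 to -0.11, adjusted *P* = 0.0061). Without *Carm1 KO/KO* replicate 2 or wild-type replicate 2 the adjusted *P* value was 0.051 and 0.055.

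*Prmt5*, the main source of symmetric dimethylarginine and part of the complex that prepares Sm proteins for snRNP assembly, changed in the opposite direction. It stood at 113.8, 117.0 and 115.1 CPM in *Carm1 KO/KO* embryos and at 102.8, 104.4 and 103.9 CPM in wild-type embryos. The libraries of each group lay within a narrow band (SD 1.57 and 0.835 CPM) and the bands were well apart. The log2 fold change was 0.15 (SE 0.05, 95% interval 0.06 to 0.24, adjusted *P* = 0.022). Leaving out any 1 of the 3 mutant libraries, or wild-type replicate 2, took the adjusted *P* value to between 0.055 and 0.099, while the log2 fold change stayed between 0.14 and 0.16.

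*Prmt8*, a membrane-anchored enzyme found mainly in the brain, stood at 21.1, 19.9 and 22.2 CPM in mutants and at 17.97, 18.7 and 18.7 CPM in wild-type embryos. These groups did not overlap either, but at a log2 fold change of 0.19 (SE 0.08, adjusted *P* = 0.14) the difference was not significant. *Prmt1*, which makes most of the asymmetric dimethylarginine of the cell, ranged from 262.1 to 275.9 CPM in mutants and from 259.3 to 261.9 CPM in wild-type embryos, a log2 fold change of 0.05 (SE 0.04, adjusted *P* = 0.51). For *Prmt1* the 95% interval of the fold change was 0.9753 to 1.09. *Prmt3*, a cytosolic enzyme that methylates a protein of the small ribosomal subunit, had an interval of 0.940 to 1.12. *Prmt6*, a nuclear enzyme with histone H3 among its substrates, had an interval of 0.949 to 1.14, and *Prmt7* one of 0.941 to 1.10. The groups of these last 3 genes overlapped.

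**Figure D1:**
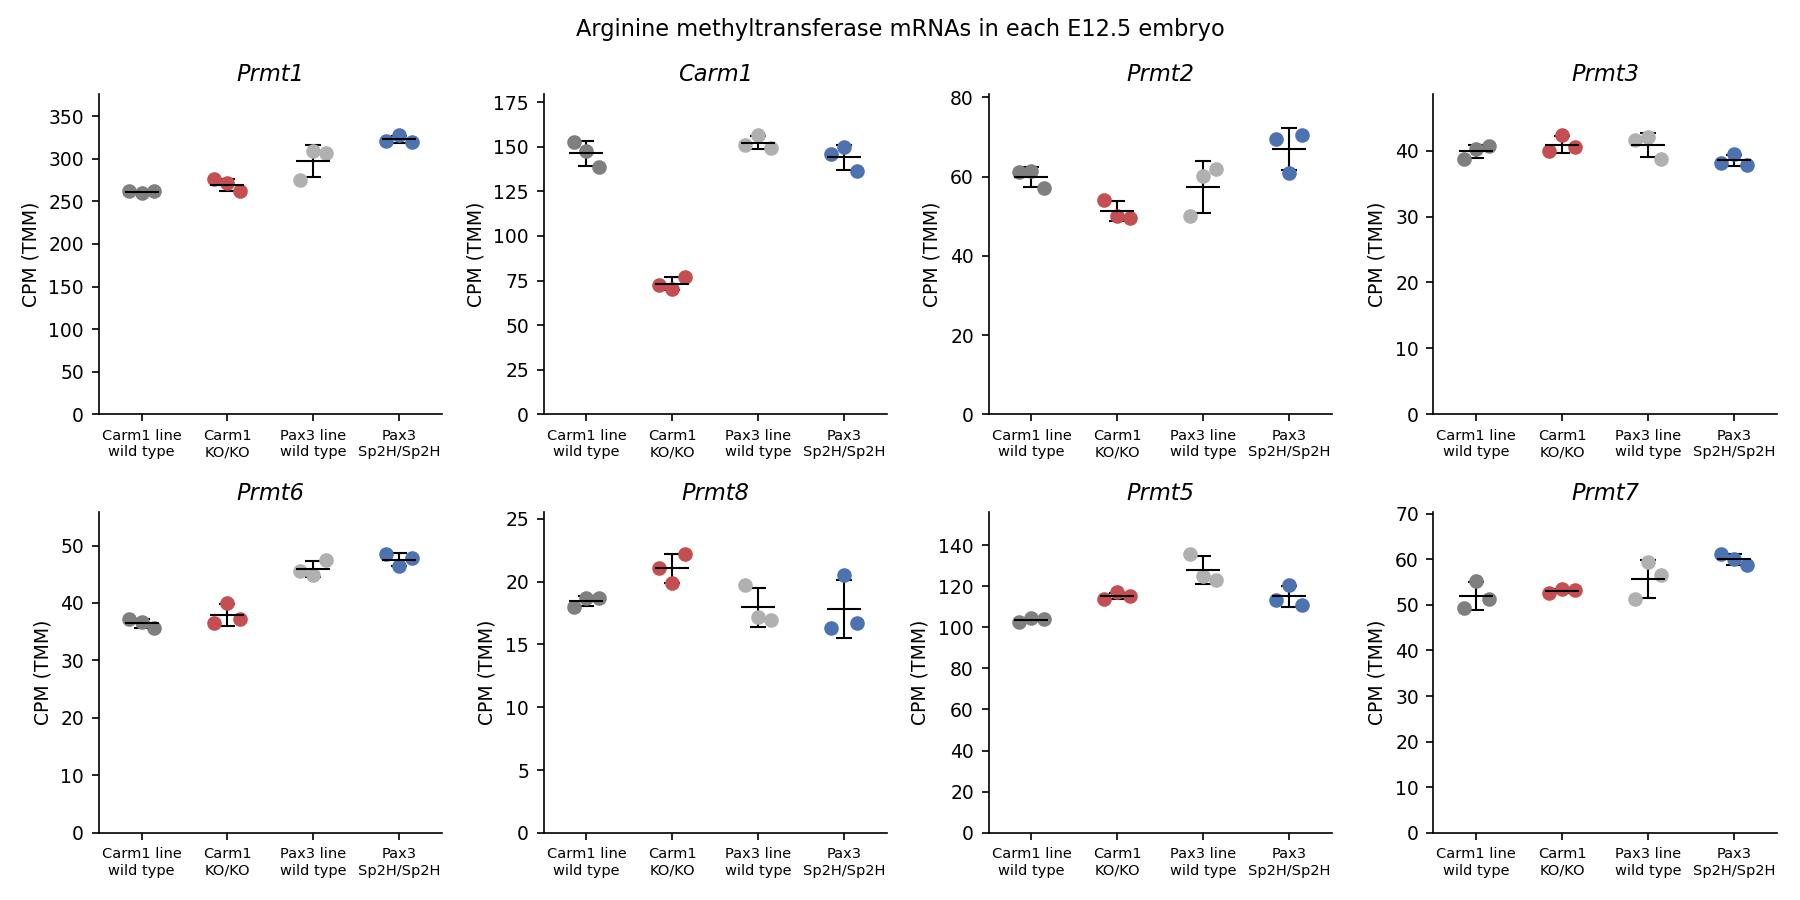
CPM of each of the 8 genes (y axis, from 0) in each embryo (points) of the 4 groups (x axis), with the mean and SD of 3 libraries in black. *Carm1* in *Carm1 KO/KO* embryos lies between 70.3 and 77.2 CPM, below every other library, while the other genes differ by far less between groups.

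The summed CPM of the 8 genes was 662.5 ± 4.72 in *Carm1 KO/KO* embryos and 717.6 ± 8.87 in wild-type embryos of the line. *Carm1* made up 11.1% ± 0.611 of the sum in mutants and 20.4% ± 0.786 in wild-type embryos. The sum of the 7 other genes ranged from 580.0 to 593.9 CPM in mutants and from 568.8 to 576.0 CPM in wild-type embryos. The 3 mutants were thus above the 3 wild-type embryos in this sum by less than the amount by which *Carm1* itself was lower.

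In *Pax3 Sp2H/Sp2H* embryos only *Prmt2* of the 8 members changed significantly, and it rose by 17.5%. In this line 24.5% of all 15724 genes tested were significant. *Prmt5* was lower in every mutant library than in every wild-type library and *Prmt1* was higher, but neither passed the threshold. These were the 2 members whose groups did not overlap, compared with 39.9% of all genes tested.

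*Prmt2* stood at 69.5, 60.9 and 70.4 CPM in *Pax3 Sp2H/Sp2H* embryos and at 49.9, 60.2 and 61.9 CPM in wild-type embryos. The groups overlapped, since wild-type replicate 3 was above mutant replicate 2. The log2 fold change was 0.23 (SE 0.08, 95% interval 0.08 to 0.39, adjusted *P* = 0.028). Without wild-type replicate 1, the lowest library, it was 0.14 (adjusted *P* = 0.15), and without mutant replicate 1 or 3 the adjusted *P* value was 0.12 and 0.13. Correction for gene length and GC content also ended the call (log2 fold change 0.17, adjusted *P* = 0.18). Among embryos without Y-linked reads, the 2 mutants were at 69.5 and 60.9 CPM and the wild-type embryo at 49.9 CPM. Among embryos with such reads, the mutant was at 70.4 CPM and the wild-type embryos at 60.2 and 61.9 CPM.

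*Prmt5* stood at 113.1, 120.7 and 111.1 CPM in *Pax3 Sp2H/Sp2H* embryos and at 135.7, 124.7 and 122.9 CPM in wild-type embryos. Every mutant was below every wild-type embryo, at a log2 fold change of -0.14 (SE 0.06, 95% interval -0.26 to -0.03, adjusted *P* = 0.065). It passed the threshold in 4 of 15 alternatives, among them the fit that accounts for Y-linked reads (-0.18, adjusted *P* = 0.020) and the fit of all 12 libraries (-0.15, adjusted *P* = 0.020). Within both sets of embryos, with and without Y-linked reads, the mutants were lower.

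*Prmt1* stood at 321.1, 327.6 and 320.2 CPM in *Pax3 Sp2H/Sp2H* embryos and at 275.6, 308.7 and 307.1 CPM in wild-type embryos. The wild-type library that stood apart was replicate 1, which was also the lowest for *Prmt2* and the highest for *Prmt5*. It was the only wild-type embryo of this line without Y-linked reads. Among genes named further below, it was the lowest wild-type library for *Ddah2*, *Coprs* and *Btg2* and the highest for *Ddah1*. The log2 fold change of *Prmt1* was 0.13 (SE 0.06, adjusted *P* = 0.11). It was 0.08 without wild-type replicate 1, and it passed the threshold in 2 of 15 alternatives, without wild-type replicate 2 (0.17, adjusted *P* = 0.042) and with Y-linked reads accounted for (0.16, adjusted *P* = 0.048). *Carm1* stood at 145.7, 150.1 and 136.3 CPM in *Pax3 Sp2H/Sp2H* embryos and at 151.1, 156.4 and 149.2 CPM in wild-type embryos, so that the groups overlapped. Its log2 fold change was -0.07 (SE 0.05, 95% interval -0.18 to 0.04, adjusted *P* = 0.38), and with the correction for length and GC content it was -0.15 (adjusted *P* = 0.019). For *Prmt3*, *Prmt6*, *Prmt7* and *Prmt8* the log2 fold changes were -0.07, 0.06, 0.12 and 0.00, with adjusted *P* values of at least 0.17.

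**Figure D2:**
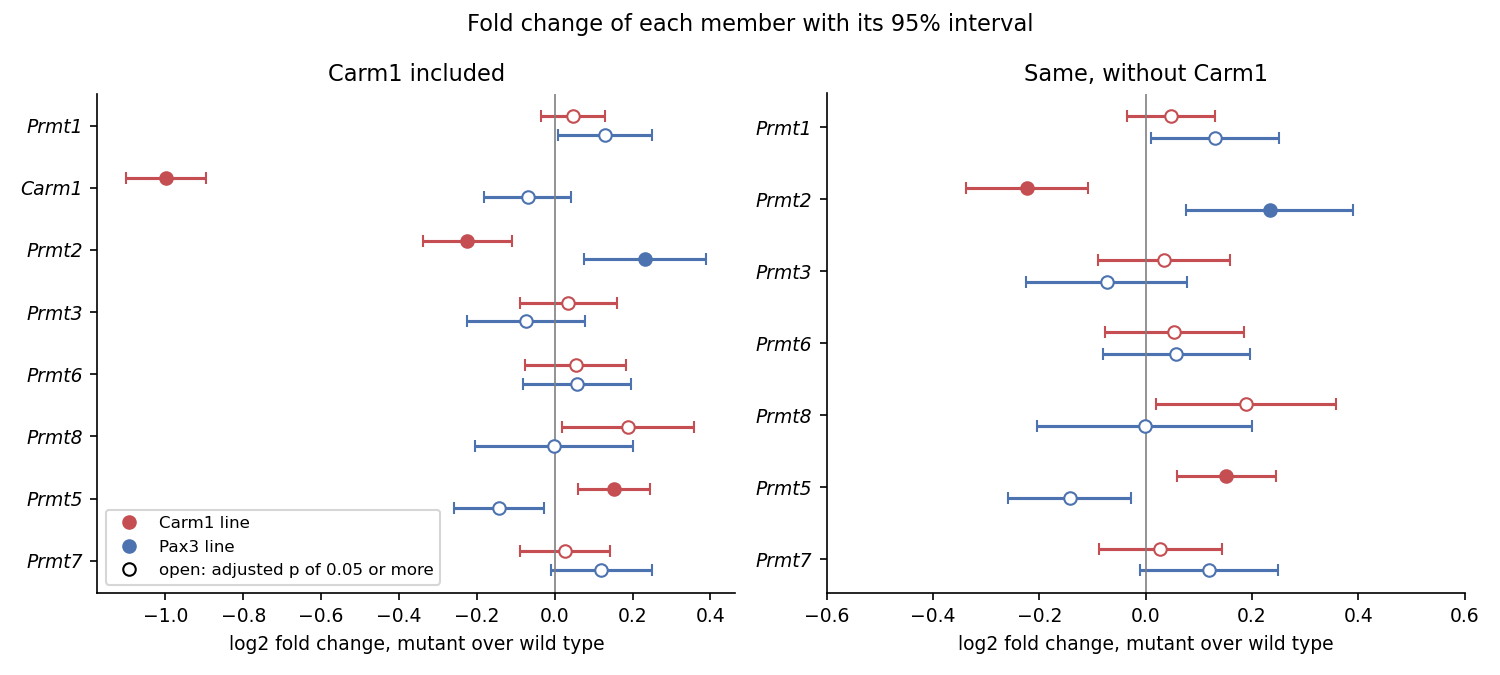
Log2 fold change of mutant over wild type (x axis) for each gene (y axis) in the *Carm1* line (red) and the *Pax3* line (blue), with 95% intervals and open symbols where the adjusted *P* value is 0.05 or more. The right panel repeats the left one without *Carm1*, so that *Prmt2* (-0.22 and 0.23) and *Prmt5* (0.15 and -0.14) can be seen on opposite sides of 0 in the 2 lines.

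The effect of the mutation differed significantly between the lines for *Carm1*, *Prmt2* and *Prmt5*, and for 19.1% of all 16292 genes tested for such a difference. With *Carm1* set aside, this was 2 of 7 members. The effect in the *Carm1* line minus that in the *Pax3* line, on the log2 scale, was -0.92 for *Carm1* (SE 0.07, adjusted *P* = 2.4e-10). It was -0.45 for *Prmt2* (SE 0.10, 95% interval -0.65 to -0.25, adjusted *P* = 0.0016) and 0.31 for *Prmt5* (SE 0.07, 95% interval 0.16 to 0.45, adjusted *P* = 0.0023). These 3 differences were significant in each of 20 alternatives, which included leaving out each of the 12 libraries in turn. The other 5 members did not pass this test, with estimates between -0.08 for *Prmt7* and 0.20 for *Prmt8* and adjusted *P* values of at least 0.316. For *Prmt2* the highest adjusted *P* value over the alternatives was 0.0089, and for *Prmt5* it was 0.012.

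The ratio of *Prmt2* to *Prmt5* counts within a library does not depend on the scaling of libraries. It lay between 0.428 and 0.476 in *Carm1 KO/KO* embryos and between 0.549 and 0.595 in wild-type embryos of that line. In the *Pax3* line it ranged from 0.505 to 0.634 in mutants and from 0.368 to 0.503 in wild-type embryos. The mutants were thus below their wild-type embryos in the first line and above them in the second, where the closest libraries were nearly equal. In the *Carm1* line every mutant was lower in *Prmt2* and higher in *Prmt5* than every wild-type embryo, so the ratio had to separate there. This pair was chosen with its opposite changes known. The ratio therefore restates those changes without the scaling of libraries, and is not separate evidence for them.

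**Figure D3:**
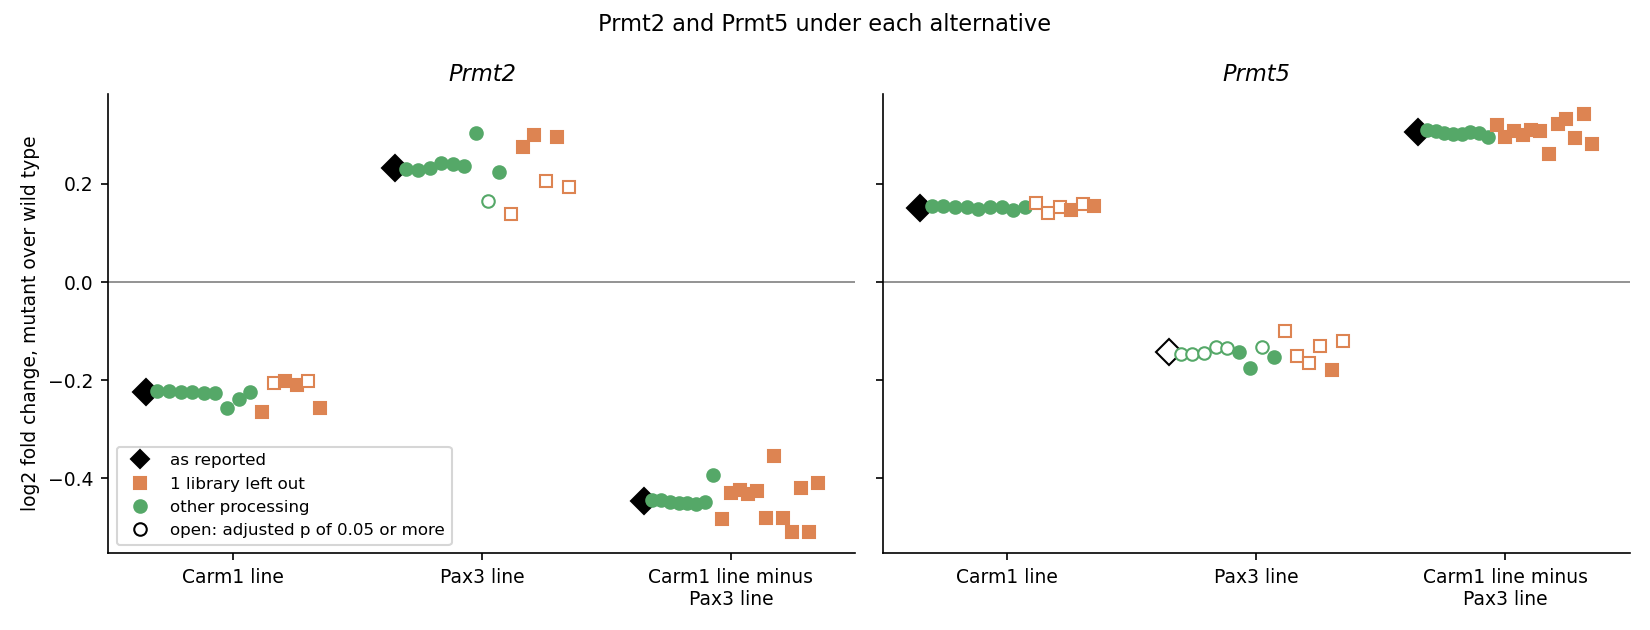
Log2 fold change of *Prmt2* (left) and *Prmt5* (right) on the y axis in each line and for the difference between the lines, as reported (diamonds), with 1 library left out (squares) and under other processing (circles), open where the adjusted *P* value is 0.05 or more. All 20 alternatives of each difference are filled, and *Prmt2* in the *Pax3* line ranges from 0.14 to 0.30 with 4 of 15 open.

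The promoters of *Prmt2* and *Prmt5* are shown because these were the members, besides *Carm1*, whose effects differed between the lines. Both windows come from RefSeq on GRCm38.p6, hold 300 bases, and lie on the minus strand at chr10:76237816-76238115 for *Prmt2* and chr14:54517421-54517720 for *Prmt5*. Each runs from before the start of the gene into its first exon. Capitals mark matches on either strand to the GC box GGGCGG, the CCAAT box, the TATA box TATAAA, the E box CACGTG and the Ets site CCGGAAG, none of which overlap here.
Prmt2 promoter: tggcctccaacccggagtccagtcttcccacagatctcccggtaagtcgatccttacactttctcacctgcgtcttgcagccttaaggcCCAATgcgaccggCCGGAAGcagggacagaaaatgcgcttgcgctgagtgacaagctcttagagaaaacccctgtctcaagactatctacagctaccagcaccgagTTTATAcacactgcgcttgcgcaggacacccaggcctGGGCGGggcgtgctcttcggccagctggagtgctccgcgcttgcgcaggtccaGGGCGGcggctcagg
Prmt5 promoter: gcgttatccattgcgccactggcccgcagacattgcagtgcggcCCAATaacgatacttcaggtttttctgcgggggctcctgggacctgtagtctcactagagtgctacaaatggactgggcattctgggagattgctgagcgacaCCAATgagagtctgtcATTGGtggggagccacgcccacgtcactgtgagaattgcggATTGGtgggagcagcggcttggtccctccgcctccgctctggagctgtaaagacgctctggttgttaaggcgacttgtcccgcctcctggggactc
The *Prmt2* window held 2 GC boxes, 1 CCAAT box, 1 TATA box and 1 Ets site, and the *Prmt5* window held 4 CCAAT boxes and no other match. Of 32851 promoter windows, 35.7% held a GC box, 37.4% a CCAAT box, 13.6% a TATA box, 7.15% the E box and 8.86% the Ets site. GC content was 60.3% and 58.0% in these windows, and its median over all windows was 52.7%. Of the 8 members, *Carm1* had no window in this table.

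Levels of different genes were compared per kilobase of annotated exons. In wild-type embryos of the *Carm1* line, *Prmt1* was the most abundant member at 76.2 ± 0.416 CPM per kilobase. *Carm1* followed at 30.2 ± 1.48, *Prmt5* at 26.2 ± 0.211 and *Prmt2* at 17.7 ± 0.727 CPM per kilobase. The libraries of neighbours in this part of the order did not overlap. *Prmt6* at 8.69, *Prmt7* at 8.48, *Prmt8* at 6.77 and *Prmt3* at 6.65 CPM per kilobase came last, and *Prmt6* overlapped with *Prmt7*, and *Prmt8* with *Prmt3*. In *Carm1 KO/KO* embryos *Carm1* fell to rank 4 with 15.1 ± 0.737 CPM per kilobase, where its libraries overlapped with those of *Prmt2* at 15.2 ± 0.741 CPM per kilobase.

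In the *Pax3* line the order of the upper ranks was *Prmt1*, then *Prmt5* and *Carm1*, whose libraries overlapped in both genotypes, then *Prmt2*. With the length of the longest coding transcript in place of all exons, the first 4 ranks were the same in each group. The lower 4 changed places, with *Prmt3* at 15.9 CPM per kilobase above *Prmt7* (14.95) and *Prmt6* (11.96) in wild-type embryos of the *Carm1* line. Between wild-type embryos of the 2 lines, the libraries of *Prmt1*, *Prmt5* and *Prmt6*, 3 of the 8 members, did not overlap, compared with 48.9% of 16292 genes. *Prmt1* stood at 261.0 ± 1.42 CPM in the *Carm1* line and 297.1 ± 18.7 CPM in the *Pax3* line, *Prmt5* at 103.7 ± 0.835 and 127.8 ± 6.92 CPM, and *Prmt6* at 36.5 ± 0.801 and 46.0 ± 1.39 CPM. These differences were not tested, and strain, laboratory and line cannot be told apart.

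**Figure D4:**
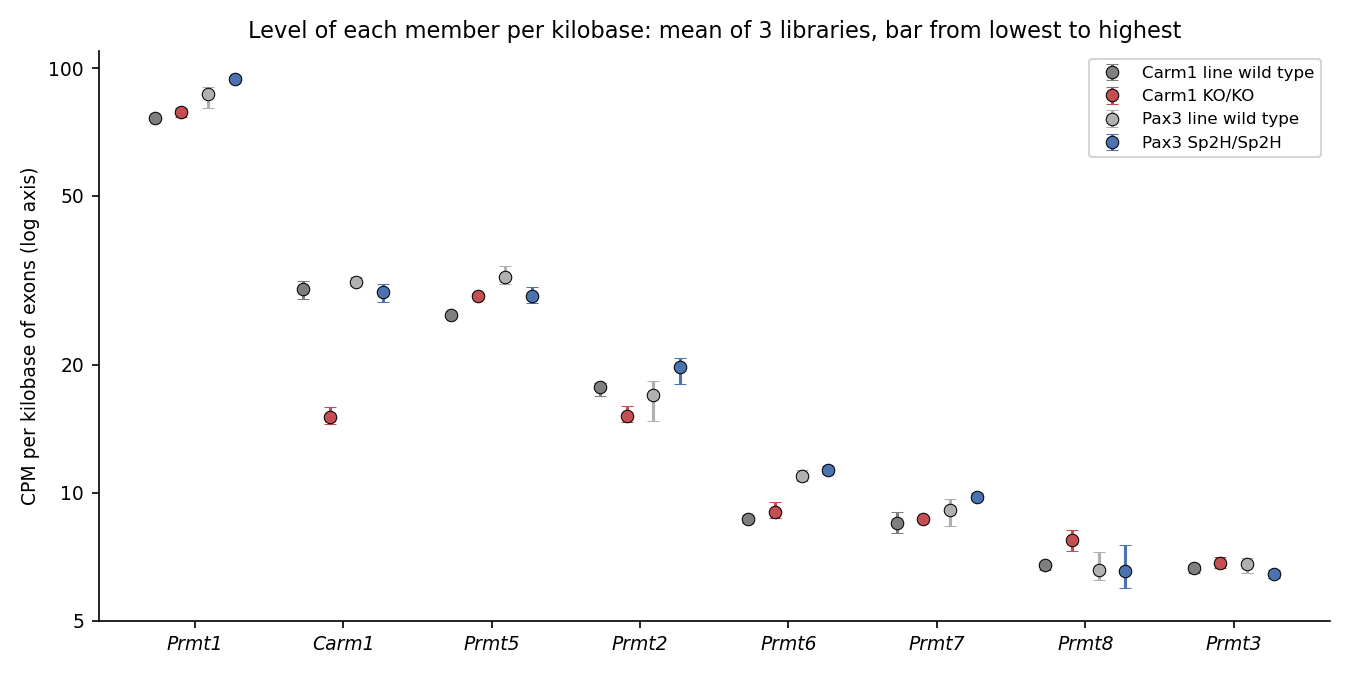
CPM per kilobase of annotated exons (y axis, log scale) of each gene (x axis) in the 4 groups, as the mean of 3 libraries with a bar from the lowest to the highest. *Prmt1* stands highest in each group, and *Carm1* drops from 30.2 to 15.1 CPM per kilobase between wild-type and *Carm1 KO/KO* embryos.

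Genes that work with arginine methylation were read from a list of 28: partners of PRMT5 and PRMT1, readers of methylarginine, enzymes of the methyl donor cycle, enzymes that break down methylarginine, enzymes that convert arginine to citrulline, and further methyltransferases. In the *Carm1* line 26 were tested, of which 2 rose and 1 fell, compared with 5.49% higher and 7.83% lower among all genes tested. In the *Pax3* line 25 were tested, of which 3 rose and 2 fell, compared with 14.0% higher and 10.5% lower. The median of their log2 fold changes was 0.05 in the *Carm1* line and -0.05 in the *Pax3* line, and over all genes tested it was 0.00 in both. *Prmt10*, the symbol of *Prmt9* here, did not pass the threshold in either line. Its log2 fold change was -0.09 in the *Carm1* line (adjusted *P* = 0.53) and -0.01 in the *Pax3* line (adjusted *P* = 0.94).

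*Ddah2*, of the family of hydrolases that act on free asymmetric dimethylarginine, was higher in the mutants of both lines. It stood at 260.4, 244.2 and 240.7 CPM in *Carm1 KO/KO* embryos and at 211.4, 212.5 and 205.1 CPM in wild-type embryos, with no overlap (log2 fold change 0.24, SE 0.04, adjusted *P* = 0.00013). In *Pax3 Sp2H/Sp2H* embryos it stood at 274.2, 269.8 and 269.7 CPM, against 175.3, 235.0 and 212.8 CPM in wild-type embryos (log2 fold change 0.40, SE 0.08, adjusted *P* = 0.0044). In the *Pax3* line the correction for length and GC content took it to 0.13 (adjusted *P* = 0.097). Its relative *Ddah1* fell in *Pax3 Sp2H/Sp2H* embryos, from 68.9, 54.98 and 62.7 CPM in wild-type embryos to 49.8, 49.5 and 51.0 CPM (log2 fold change -0.30, SE 0.07, adjusted *P* = 0.0019).

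Of the listed partners of PRMT5, only *Clns1a*, whose product brings Sm proteins to the complex, rose significantly in *Carm1 KO/KO* embryos. It stood at 98.5, 98.8 and 94.8 CPM against 85.3, 87.3 and 90.6 CPM (log2 fold change 0.15, SE 0.05, adjusted *P* = 0.035). It passed the threshold in 7 of 15 alternatives, and the highest adjusted *P* value over the alternatives was 0.13. *Wdr77* (log2 fold change 0.01, adjusted *P* = 0.90), *Riok1* (-0.03, adjusted *P* = 0.77) and *Coprs* (0.15, adjusted *P* = 0.34) did not pass it in this line. In the *Pax3* line *Clns1a*, *Wdr77* and *Riok1* did not pass it. *Coprs*, whose product ties PRMT5 to histones, rose in *Pax3 Sp2H/Sp2H* embryos from 10.1, 14.0 and 14.0 CPM to 21.5, 21.2 and 21.4 CPM (log2 fold change 0.75, SE 0.10, adjusted *P* = 7.1e-06). *Padi2*, which converts arginine in proteins to citrulline, fell in the same embryos from 4.02, 3.37 and 4.11 CPM to 1.67, 2.81 and 2.25 CPM (log2 fold change -0.77, SE 0.20, adjusted *P* = 0.0068, and 0.058 without mutant replicate 1). *Btg2*, a binding partner of PRMT1, also rose there (log2 fold change 0.32, SE 0.09, adjusted *P* = 0.021), and is named after its value was seen. It was called in 13 of 15 alternatives, with adjusted *P* values up to 0.10, and its log2 fold change was 0.21 without wild-type replicate 1.

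*Agxt2*, a mitochondrial aminotransferase that also acts on dimethylarginine, fell in *Carm1 KO/KO* embryos, where it held 5, 8 and 5 counts against 21, 16 and 24 counts in wild-type embryos (log2 fold change -1.56, SE 0.45, adjusted *P* = 0.016). It was called in 9 of 14 alternatives, and the stricter filter on counts left it untested. The call was lost with DESeq2 and without replicate 1 or 3 of either group (adjusted *P* up to 0.090). Beside it, all 5 of 5 hepatocyte markers fell in the same embryos, and their summed level ranged from 701.4 to 810.4 CPM in mutants and from 1313 to 1586 CPM in wild-type embryos. For the lists that follow, the levels in brackets are sums over every marker of the list, whether significant or not. Of the other marker lists, 5 of 5 neural progenitor markers rose (927.2 to 971.1 CPM against 687.8 to 726.8 CPM), and 4 of 5 skeletal muscle markers (154.7 to 159.8 against 232.4 to 243.7 CPM), 4 of 5 cardiac muscle markers (263.5 to 282.4 against 342.1 to 396.0 CPM) and 4 of 8 neuronal markers (1509 to 1548 against 1666 to 1782 CPM) fell. In *Pax3 Sp2H/Sp2H* embryos 4 of 5 skeletal muscle markers fell (74.0 to 87.8 against 148.2 to 154.3 CPM), as did 3 of 5 markers of neural crest derivatives (69.2 to 76.3 against 99.5 to 106.5 CPM), and 3 of 5 neural progenitor markers rose (751.1 to 834.0 against 696.3 to 748.8 CPM). In the same embryos 4 of 8 neuronal markers fell (1450 to 1556 against 1645 to 1764 CPM), 1 of 5 hepatocyte markers fell (761.3 to 844.8 against 922.2 to 1128 CPM), and of 5 cardiac muscle markers 2 rose and 1 fell (252.6 to 332.6 against 241.9 to 292.4 CPM). Of 5 erythroid markers in the *Carm1* line, 1 rose and 2 fell. No marker of these lists was at 0 counts over a group. The part of these markers in the changes of the methyltransferases was not tested.

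The *Carm1* gene lies at chr9:21546894-21592623 on the plus strand of GRCm38. Its exons share 1025 nt, or 21.1% of their length, with exons of *Yipf2*, a gene for a membrane protein of the Golgi that lies on the other strand. The strand setting of the counting is not given in the sources used here, so reads of both genes on the shared stretch cannot be told apart. *Yipf2* stood at 12.6, 14.4 and 14.6 CPM in *Carm1 KO/KO* embryos and at 14.2, 13.6 and 11.7 CPM in wild-type embryos, with overlap (log2 fold change 0.08, SE 0.10, adjusted *P* = 0.69). *Prmt6* likewise shared 984 nt of exons with an antisense gene that the tables do not list.

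None of the 3 nearest tested genes on either side of *Carm1* passed the threshold in *Carm1 KO/KO* embryos. *Dnm2* (-0.01, SE 0.05), which encodes a dynamin of membrane fission, had a log2 fold change near 0. *Tmed1*, *AB124611* and *Smarca4* were each higher in every mutant library than in every wild-type library. The groups of *Dnm2*, *Yipf2* and *1810026J23Rik* overlapped. Over all genes tested in this line, 30.0% had groups that did not overlap. *Tmed1* stood at 25.3 ± 1.20 CPM against 23.2 ± 0.363 CPM, a log2 fold change of 0.12 (SE 0.08, adjusted *P* = 0.32). *AB124611*, the next gene before *Carm1*, was at 5.11 ± 0.327 CPM in mutants and 3.73 ± 0.835 CPM in wild-type embryos, a log2 fold change of 0.47 (SE 0.18, adjusted *P* = 0.081). After *Carm1*, *1810026J23Rik* had a log2 fold change of -0.03 (SE 0.05). *Smarca4*, the ATPase of the BAF chromatin remodelling complex, stood at 522.3 ± 13.3 CPM against 480.9 ± 28.4 CPM, a log2 fold change of 0.12 (SE 0.05, adjusted *P* = 0.094). Within 1 Mb of the start of *Carm1*, 5 of 67 other tested genes were significant, or 7.46%, and within 5 Mb 8 of 81, or 9.88%, where all genes tested gave 13.3%.

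**Figure D5:**
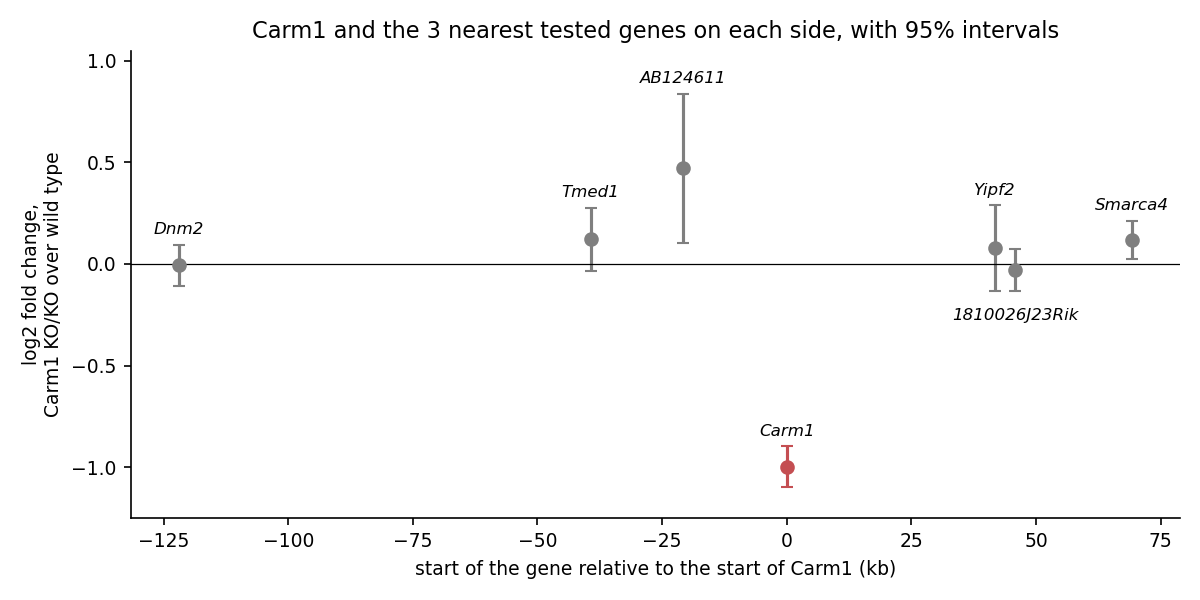
Log2 fold change of *Carm1 KO/KO* over wild type (y axis) with 95% intervals for *Carm1* (red) and the 3 nearest tested genes on each side (grey), by the start of each gene relative to that of *Carm1* in kilobases (x axis). *Carm1* lies at -0.998 and its neighbours lie between -0.03 and 0.47.

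The genes whose pattern was most like that of *Carm1* over the 12 libraries were *Rps4y2*, *Pklr* and *F2*, among 10885 genes that averaged 10 CPM or more. Likeness was the root mean square difference of log2 CPM, after the wild-type mean of each line was taken off. It was 0.13, 0.14 and 0.15 for these genes, and its median over all genes was 0.52. *Rps4y2*, named *Rps4l* in the annotation and encoding a ribosomal protein, had log2 fold changes of -0.94 in the *Carm1* line and 0.03 in the *Pax3* line. *Pklr*, the pyruvate kinase of liver and red cells, had -0.82 and -0.02, and *F2*, the prothrombin gene expressed in hepatocytes, had -1.01 and -0.03.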

How the data were processed

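Polyadenylated RNA from whole embryos at E12.5 was sequenced by the authors in 12 libraries, 3 per group. Reads were aligned by the authors with STAR to mm10, and featureCounts gave the number on the exons of each gene. The deposited tables hold these counts unnormalized, 1 column per embryo. Tool versions and the strand setting are not given in the sources used here.

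Groups and replicate numbers were taken from the labels. Whole tables were fitted with edgeR (version 4.0.16, R 4.3.3): TMM factors, filterByExpr, robust dispersions, the quasi-likelihood test, and Benjamini-Hochberg adjustment with a threshold of 0.05. Each line had its own fit, and an interaction over 12 libraries tested whether the effects of the mutations differed. Standard errors were derived from the F statistic. The fits were tested on simulated data with changes larger than those of *Prmt2* and *Prmt5*, so that test does not bear on changes as small as theirs. Totals of 17183344 to 23518692 counts set the precision, and counting error is only part of the spread between embryos. Replicates are separate embryos, and no 2 libraries were identical.

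Alternatives were DESeq2 (version 1.42.0), which the study used, RLE and upper-quartile factors, other filters, the replicate number as a block, a covariate for Y-linked reads (100 counts or more), spline offsets for length and GC content (5 degrees of freedom), one fit of all 12 libraries, and leaving out each library. The GENCODE annotation of GRCm38 held 21785 symbols directly and 1278 under another name, and 357 were not matched.

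The members, gene lists, named genes and alternatives were chosen with earlier results of these data known. Named are the 8 members, the significant genes of the partner list (at most 4 per line by *P*, with 1 more said to be added), 3 genes with the pattern most like *Carm1*, and 3 neighbours on each side of *Carm1*. *Prmt10* and the other listed partners of PRMT5 are named whatever their values.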

Additional observations from a re-analysis of the deposited data

Results flagged for a closer look

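The effect of the mutation differed between the lines, by the interaction term of edgeR's quasi-likelihood test over all genes, for 3 of the 8 methyltransferases and 6 of 26 tested genes of the partner list. With *Carm1* set aside it was 2 of 7 methyltransferases. The share was 23.1% in the partner list and 19.1% over all 16292 genes tested, so these counts are descriptive. The effect in the *Carm1* line minus that in the *Pax3* line was -0.92 on the log2 scale for *Carm1* (adjusted *P* = 2.4e-10), -0.45 for *Prmt2* (adjusted *P* = 0.0016) and 0.31 for *Prmt5* (adjusted *P* = 0.0023). For *Prmt2* and *Prmt5* the estimates of the 2 lines had opposite signs. Among the partners it was -0.60 for *Coprs* (adjusted *P* = 0.0043), 0.40 for *Ddah1* (adjusted *P* = 0.0021), 0.24 for *Clns1a* (adjusted *P* = 0.018) and 0.85 for *Padi2* (adjusted *P* = 0.020). It was also -0.49 for *Mettl23* (adjusted *P* = 0.014), an arginine methyltransferase outside the PRMT family, and 0.25 for *Mtr* (adjusted *P* = 0.043), of the methyl donor cycle, which are named after their values were seen. *Coprs* and *Ddah1* passed the threshold in each of 20 alternatives, *Clns1a* and *Mettl23* in 18, *Padi2* in 17 and *Mtr* in 10. Strain, laboratory and line cannot be told apart from the mutated gene in this difference. Groups of 3 libraries are too small for the test of single outlying samples.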

How the results depend on the processing

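The calls of *Carm1* in the *Carm1* line, and of *Carm1*, *Prmt2* and *Prmt5* in the difference between the lines, kept their direction and significance in each alternative run. Calls within 1 line rested on fewer libraries. With 1 library left out, the members called ranged from 1 to 3 of 8 in the *Carm1* line (1 without *Carm1 KO/KO* replicate 2 or wild-type replicate 2) and from 0 to 2 in the *Pax3* line (0 without wild-type replicate 1 or mutant replicate 1 or 3). In the *Pax3* line 2 members were called with the replicate block and with one fit of all 12 libraries, and 3 with the covariate for Y-linked reads. Leaving out 1 library gave between 1224 (without *Carm1 KO/KO* replicate 1; 1381 without replicate 2 and 1349 without wild-type replicate 2) and 2290 significant genes in the *Carm1* line against 2106 reported, between 2454 (without mutant replicate 3; 2565 without mutant replicate 1) and 4103 in the *Pax3* line against 3851, and between 2311 and 3390 for the difference against 3115. Of the partner list in the *Carm1* line, 1 gene was called with DESeq2 and 5 with length and GC offsets. Causes were not tested.

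The sign of estimates near 0 that were never significant turned in 12 cases. With length and GC offsets *Prmt3* in the *Pax3* line was at 0.011 and *Prmt6* in the difference at -0.021. *Prmt8* in the *Pax3* line was at 0.0078 with no filter and 0.0054 with a minimum of 10 counts. With 1 library left out, *Prmt7* in the *Carm1* line ranged from -0.0073 to 0.078, *Prmt8* in the *Pax3* line from -0.11 to 0.069 and *Prmt6* in the difference from -0.033 to 0.038. With the replicate number as a block, 1787 genes were significant in the *Carm1* line and 4177 in the *Pax3* line, and *Prmt5* in the *Pax3* line became significant (adjusted *P* = 0.047). The labels tie the numbers to no shared litter, and deviations of same-numbered embryos were correlated at -0.04 to -0.01 in the *Carm1* line and -0.07 to 0.20 in the *Pax3* line. Levels per kilobase depend on the length chosen, which cancels in changes between groups. The offsets for length and GC content did move some of those changes.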
